A study of Mus musculus with 33 samples.

Results

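Metabotropic glutamate receptors are the G protein-coupled receptors of the main excitatory transmitter of the brain. Those of group I, here *Grm5*, couple to Gq and phospholipase C and are held near the postsynaptic density by Homer proteins. Those of group II (*Grm2*, *Grm3*) and group III (*Grm4*, *Grm7*, *Grm8*) couple to Gi/o, lower cAMP and mostly restrain transmitter release, and *Grm3* is also made by astrocytes. The 6 receptor genes described here were chosen by symbol from the 21565 genes of the expression table, and all 6 passed the filter on low values in all 9 comparisons.

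Polyadenylated RNA of the frontal cortex of 33 adult male mice on a C57BL/6J background was sequenced, to ask how the cortical transcriptome responds to sleep loss and what that response needs of the transcription factor MEF2C. WT mice had control sleep (CS, sleep ad libitum, n = 6), 6 hr of sleep deprivation (SD, n = 7), or 4 hr of deprivation followed by 2 hr of recovery sleep (RS, n = 7). *Mef2c* f/f mice, in which loxP sites flank 1 coding exon of *Mef2c*, were sampled in CS (n = 4) and SD (n = 3), and so were Mef2c-cKO Camk2a-Cre mice (n = 3 and n = 3, written Mef2c-cKO from here on), which carry the same floxed alleles and a *Camk2a-Cre* transgene active in excitatory forebrain neurons. By the study's methods, all mice lived over a treadmill that was run slowly for deprivation, and lights were off from before the experimental day. The methods also state that some offspring of the Mef2c-cKO cross carried a recombined allele in all tissues. Most, but not all, of the sequenced Mef2c-cKO CS mice were among these offspring.

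Values are reads of a gene per 1000000 reads of its library (CPM), divided by a scaling factor per library, called rescaled CPM, and they rest on 18935045 to 249046089 reads per library. The members' own counts ran from 577 reads (*Grm4*) to 445916 reads (*Grm5*) per library. The listed genes of WT libraries summed to 925580 to 985958 CPM and those of the other 13 libraries to 1000000, and *Pick1*, a scaffold that binds the *Grm7* product, had 0.248 ± 0.208 rescaled CPM in WT CS (SD, n = 6) and 34.6 ± 4.93 in *Mef2c* f/f CS (SD, n = 4). Levels of WT libraries and of the other libraries were therefore not tested against each other. The tissue label was checked by markers, of which all 12 of excitatory neurons, all 12 of astrocytes and all 5 of upper cortical layers had at least 1 CPM in every library. So did 8 markers of striatal neurons, which summed to 607 to 1805 rescaled CPM across libraries, next to 448 to 767 for the upper layers. *Mef2c* counted over the whole gene was at 1429 ± 414 rescaled CPM in Mef2c-cKO CS (SD, n = 3) and 1145 ± 67.2 in *Mef2c* f/f CS (SD, n = 4), a log2 fold change of 0.27 ± 0.20 (SE, adjusted p = 0.382), but reads outside the floxed exon check nothing about the deletion.

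The members differ widely in size and base composition. GC contents of genes are those of the longest annotated transcript. *Grm2* (chr9:106643095-106656082, minus strand, GRCm38) spans 12.99 kb with a GC content of 56.9%, and *Grm4* (chr17:27422387-27521403, minus strand) spans 99.0 kb with 61.7%. *Grm3* (chr5:9485541-9725170, minus strand) spans 239.6 kb with a GC content of 47.6%. *Grm5* (chr7:87584168-88134907, plus strand), *Grm8* (chr6:27275119-28135178, minus strand) and *Grm7* (chr6:110645581-111567230, plus strand) span 551 kb, 860.1 kb and 922 kb, with GC contents of 42.5%, 41.9% and 47.2%. These 3 genes are longer than 98.5%, 99.3% and 99.4% of all genes tested, and annotated exons make up 0.639% of the span of *Grm7*.

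Per kb of annotated exon, *Grm7* had the highest level of the 6 in WT CS, at 336 ± 78.0 rescaled CPM per kb (SD, n = 6). *Grm3* followed at 229 ± 58.0, *Grm5* at 164 ± 39.4 and *Grm8* at 44.7 ± 7.55. Between *Grm7* and *Grm3*, and between *Grm3* and *Grm5*, the means differed by less than the sum of the SDs, and between *Grm5* and *Grm8* by more. All receptors were measured in the same libraries, so these SDs do not measure how steady the order was within a library. *Grm2* (4.11 ± 1.11) and *Grm4* (3.72 ± 1.16) were lowest and differed by less than their spread. *Grm7*, *Grm3*, *Grm5* and *Grm8* kept this order of means in all 7 groups, while *Grm4* was above *Grm2* in WT SD and WT RS and below it in the other 5. Per kb of gene span the order in WT CS was another one, with *Grm5* at 3.05 ± 0.732, *Grm3* at 2.91 ± 0.737, *Grm7* at 2.15 ± 0.498, *Grm2* at 1.55 ± 0.418, *Grm8* at 0.515 ± 0.0868 and *Grm4* at 0.225 ± 0.0698 (SD, n = 6).

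**Figure D1:**
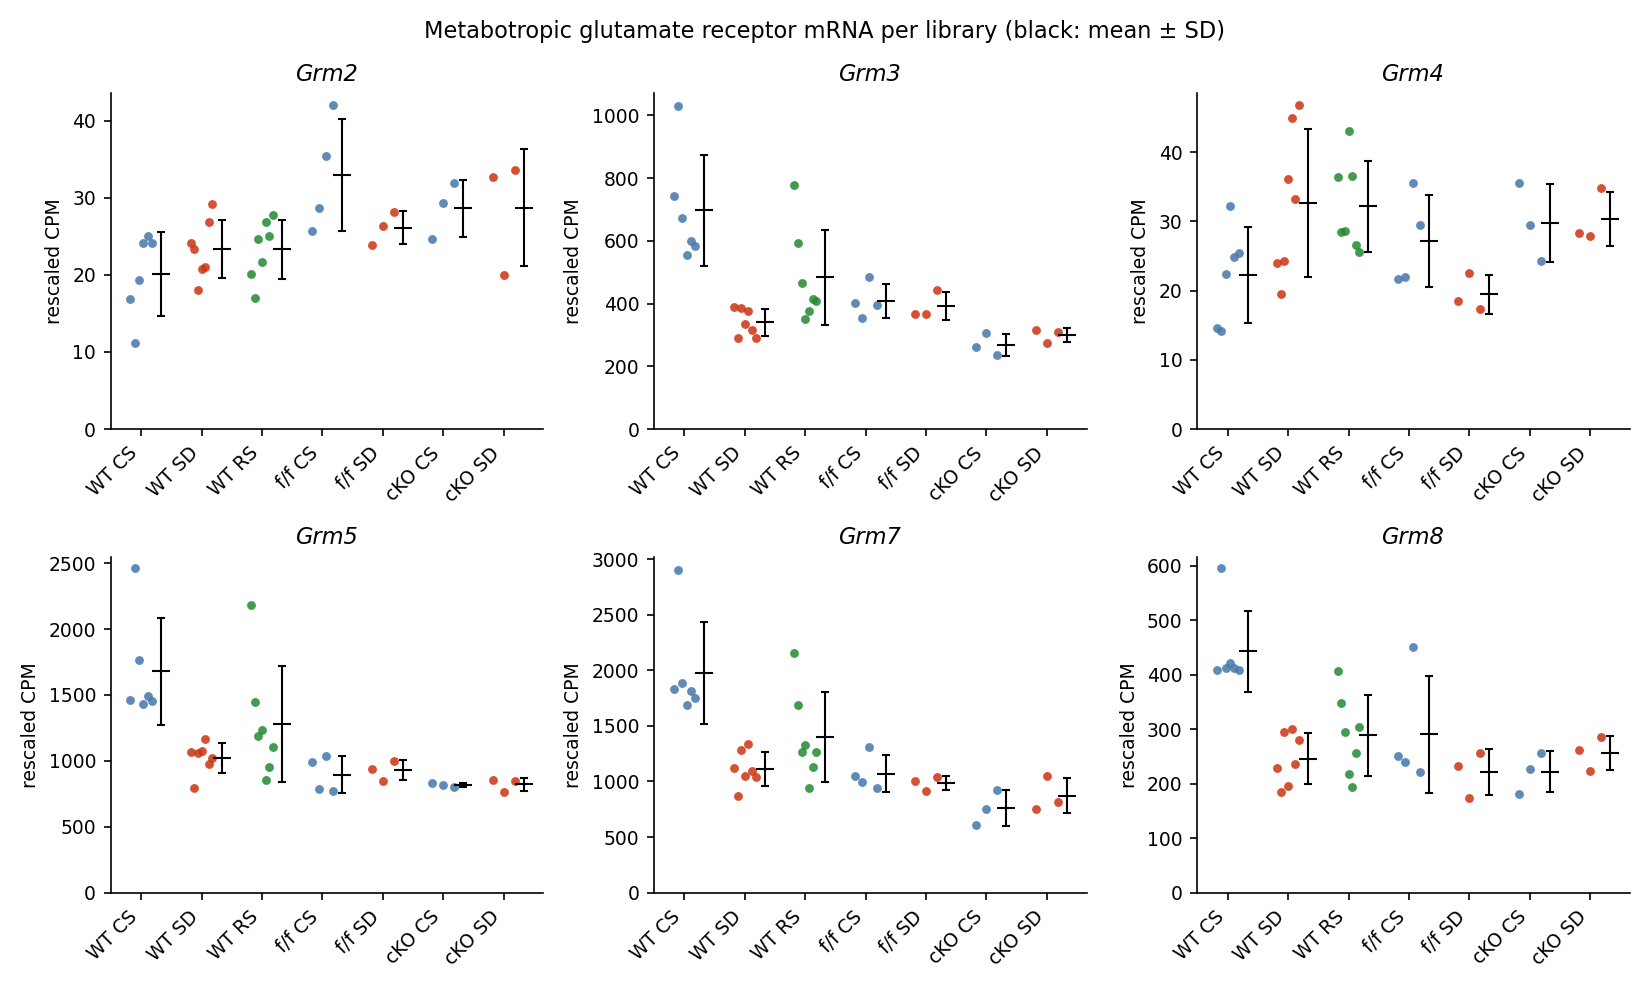
Rescaled CPM (vertical axes from 0, linear) of the 6 receptors in each of the 33 libraries, grouped by genotype and sleep condition (f/f, *Mef2c* f/f; cKO, Mef2c-cKO; blue CS, red SD, green RS), with the mean ± SD in black. For *Grm3*, *Grm5*, *Grm7* and *Grm8* all 7 WT SD libraries lie below all 6 WT CS libraries, and *Grm3* in Mef2c-cKO lies below *Mef2c* f/f in both CS and SD.

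Promoter windows of RefSeq (build GRCm38.p6), from 250 bases before to 50 after an annotated start, were at hand for *Grm3*, *Grm7*, *Grm8* and *Grm2*, and the most upstream window of each is printed because the first 3 fell together in WT SD and *Grm2* did not. Sequences run 5′ to 3′ on the strand of the gene, and capitals mark GC boxes (GGGCGG, searched on both strands).
Grm3 promoter, chr5:9725303-9725602, minus strand: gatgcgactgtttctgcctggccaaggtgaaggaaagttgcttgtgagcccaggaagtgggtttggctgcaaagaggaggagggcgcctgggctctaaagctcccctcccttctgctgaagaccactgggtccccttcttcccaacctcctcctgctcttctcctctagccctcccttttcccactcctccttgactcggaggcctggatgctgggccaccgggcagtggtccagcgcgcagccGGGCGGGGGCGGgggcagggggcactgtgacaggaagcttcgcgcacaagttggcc
Grm7 promoter, chr6:110645262-110645561, plus strand: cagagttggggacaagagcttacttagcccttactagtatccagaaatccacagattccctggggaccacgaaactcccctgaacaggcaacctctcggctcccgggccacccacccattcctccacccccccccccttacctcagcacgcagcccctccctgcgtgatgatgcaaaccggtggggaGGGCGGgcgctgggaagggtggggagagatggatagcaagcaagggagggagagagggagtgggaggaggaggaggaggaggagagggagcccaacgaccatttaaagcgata
Grm8 promoter, chr6:28135097-28135396, minus strand: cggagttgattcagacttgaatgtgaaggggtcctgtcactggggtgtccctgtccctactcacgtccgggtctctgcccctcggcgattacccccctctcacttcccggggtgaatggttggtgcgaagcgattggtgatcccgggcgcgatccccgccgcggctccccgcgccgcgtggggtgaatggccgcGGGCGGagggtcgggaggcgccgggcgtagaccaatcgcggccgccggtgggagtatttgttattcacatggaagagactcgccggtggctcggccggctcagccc
Grm2 promoter, chr9:106656060-106656359, minus strand: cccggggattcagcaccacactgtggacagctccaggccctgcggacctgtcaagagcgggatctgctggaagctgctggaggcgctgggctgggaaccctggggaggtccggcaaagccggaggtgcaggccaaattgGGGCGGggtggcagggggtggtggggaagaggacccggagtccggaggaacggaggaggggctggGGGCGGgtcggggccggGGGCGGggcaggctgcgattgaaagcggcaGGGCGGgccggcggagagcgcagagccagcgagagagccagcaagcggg

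GC boxes occurred 4 times in the *Grm2* window, 2 times, end to end, in that of *Grm3* and 1 time each in those of *Grm7* and *Grm8*, and 35.7% of 32851 windows of this length hold one. The printed windows were all richer in G and C, at 63.7% (*Grm3*), 61.0% (*Grm7*), 67.0% (*Grm8*) and 72.0% (*Grm2*), than the median window (52.7%). The printed *Grm8* window also holds the letters of an AP-1 site (TGANTCA, present in 7.81% of windows), near its 5′ end and apart from its GC box. *Grm8* windows at starts further downstream had 54.0% and 43.3% G and C and held no GC box and no AP-1 site. A further *Grm7* window had 66.7% and 1 GC box. None of the 4 printed windows holds a cyclic AMP response element (TGACGTCA, 1.79% of windows), a TATA box (TATAAA, 13.6%) or the MEF2 site (3.19%). Such matches describe letters and not binding.

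*Grm3*, *Grm8*, *Grm7* and *Grm5* were lower in sleep-deprived than in control WT mice, by between 38.2% and 50.3%, while *Grm2* and *Grm4* did not pass the test. A gene was called where its adjusted p was 0.05 or less and its log2 fold change 0.3 or more in either direction, which held for these 4 receptors, for 45.1% of all 12913 genes tested and, downward, for 20.5%. Libraries of CS and SD did not overlap for these 4, all lower in SD, against 10.4% of all genes. The median log2 fold change of the 6 receptors was -0.76 and that of all genes tested 0.04. In bulk tissue, fewer cells of a type and less RNA per cell cannot be told apart.

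*Grm3*, the group II receptor of neurons and astrocytes, went from 555 rescaled CPM in the lowest CS library, a median of 636 and a highest value of 1030, to 290.2 (lowest), 334 (median) and 389 (highest) in SD. The highest of the SD libraries thus stood well below the lowest of CS. Its log2 fold change was -1.01 ± 0.14 (SE, adjusted p = 0.000441), and 0.364% of all genes tested had a lower one.

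*Grm8*, a presynaptic group III receptor, had 408, 412 and 595 rescaled CPM as the lowest, median and highest CS values and 185, 236 and 299.8 in SD. Apart from 1 library at the top, the CS libraries of *Grm8* lay close together. The log2 fold change was -0.86 ± 0.13 (SE, adjusted p = 0.000714).

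*Grm7*, the receptor found at the active zone of nerve terminals, had 1684, 1824 and 2905 rescaled CPM in CS and 869, 1091 and 1333 in SD (lowest, median and highest). Its log2 fold change was -0.82 ± 0.13 (SE, adjusted p = 0.000918). For *Grm5*, the postsynaptic receptor of group I, the same values were 1431, 1477 and 2461 in CS and 792, 1063 and 1162 in SD, a log2 fold change of -0.70 ± 0.13 (SE, adjusted p = 0.00187). CS replicate 2 gave the highest value of all 6 CS libraries for *Grm3*, *Grm5*, *Grm7* and *Grm8*, and leaving out any 1 of the 13 libraries left these 4 receptors called, with log2 fold changes of -1.07 to -0.58.

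*Grm2*, the presynaptic autoreceptor of group II, had 11.2, 21.7 and 25.0 rescaled CPM in CS and 18.1, 23.3 and 29.2 in SD, so the groups overlapped, and its log2 fold change was 0.25 ± 0.17 (SE, adjusted p = 0.236). *Grm4*, of group III, had 14.1, 23.6 and 32.1 in CS and 19.4, 33.3 and 46.8 in SD, which also overlapped (log2 fold change 0.54 ± 0.23, SE, adjusted p = 0.0629). *Grm4* was called without CS replicate 4 (0.65) or without SD replicate 2 (0.65), and with CPM as deposited both *Grm4* (0.80) and *Grm2* (0.51) were called. That scaling moved the median of all genes from 0.04 to 0.30 and the calls from 3182 higher and 2643 lower to 6106 higher and 801 lower, and the 4 receptors that fell stayed called at -0.73 (*Grm3*) to -0.42 (*Grm5*).

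Across all genes, the change in WT SD went with gene span and with GC content, with Spearman's rho of -0.556 and 0.721 over 12443 genes, which are not independent replicates. Of 214 genes longer than 500 kb, 87.9% were called lower and the median log2 fold change was -0.69, next to -0.70, -0.82 and -0.86 for *Grm5*, *Grm7* and *Grm8*. *Grm3* fell further than most genes of its size, as the median of 698 genes between 200 and 500 kb was -0.41 and 60.5% of them were called lower. *Grm2*, at 0.25, lay near the median of 4851 genes under 20 kb (0.30), whereas *Grm4*, at 0.54, lay above the median of 5427 genes between 20 and 100 kb (-0.03).

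**Figure D2:**
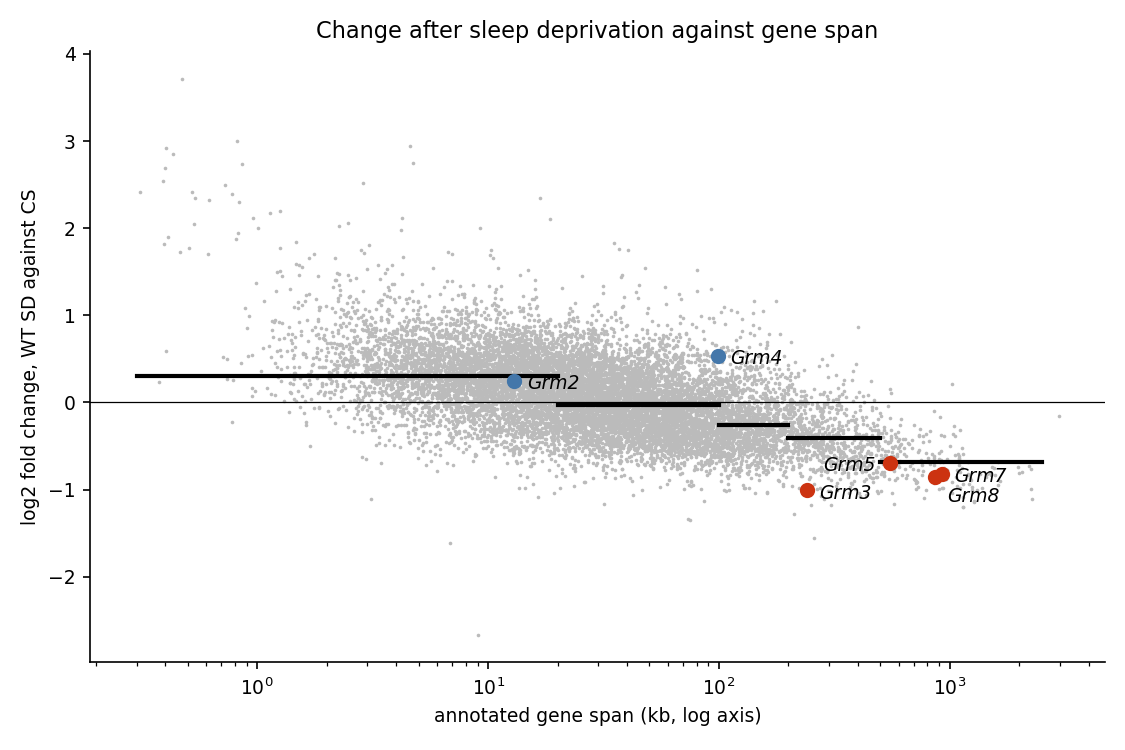
log2 fold change in WT SD against CS (vertical axis) against the annotated span of the gene in kb (horizontal log axis) for the tested genes with an annotated position (grey points), with the 6 receptors in red where called and blue where not, and black bars at the median of each span class. *Grm5*, *Grm7* and *Grm8* lie close to the median bar of the longest genes (-0.69), and *Grm3* lies below the bar of its class (-0.41).

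With the dependence on GC content and transcript length taken out of each library, the 4 receptors were still called, *Grm3* at -0.96, *Grm7* at -0.73, *Grm8* at -0.53 and *Grm5* at -0.30, while *Grm2* (-0.14) and *Grm4* (-0.06) turned negative. With gene span removed as well, *Grm3* alone was called (-0.62, adjusted p = 0.00225), *Grm7* was at -0.18, *Grm8* at -0.01 and *Grm5* at 0.02. Under quantile normalization *Grm3* (-0.68) and *Grm8* (-0.59) were called, and *Grm7* (-0.23) and *Grm5* (-0.18) were not. The listed CPM sum was under 960000 in 3 of 6 CS, 1 of 7 SD and 2 of 7 RS libraries, and without these 6 libraries the same 4 receptors were called, *Grm3* at -0.81, *Grm8* at -0.76, *Grm7* at -0.67 and *Grm5* at -0.54. The part that RNA quality or library composition had in the changes was not tested beyond these values.

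**Figure D3:**
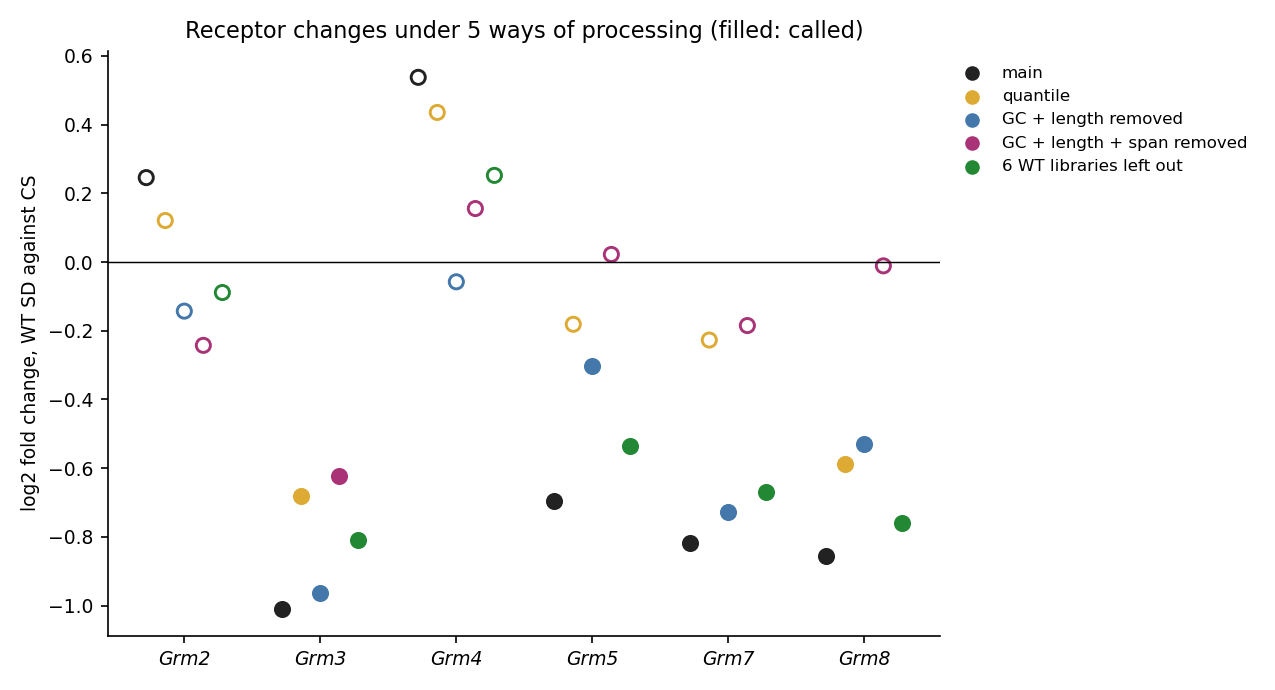
log2 fold change of each receptor in WT SD against CS (vertical axis) under 5 ways of processing, as coloured circles that are filled where the receptor was called and open where not. *Grm3* is filled in all 5, from -1.01 to -0.62, and with GC content, length and span removed *Grm5* and *Grm8* lie at 0.02 and -0.01.

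Marker genes of cell types were called in both directions in the same comparison, where 24.6% of all genes were called higher and 20.5% lower. All 5 blood genes were called higher in WT SD, their summed level going from 28.2 to 118 rescaled CPM in CS to 97.8 to 285 in SD, and 5 of 7 tested genes of meningeal fibroblasts were called higher, from a summed 11.4 to 62.8 in CS to 72.7 to 111.9 in SD. Markers of astrocytes, the non-neuronal cells best known for *Grm3*, were 12 genes that summed to 4158 to 5780 in CS and 3790 to 4845 in SD, with 4 called higher and 1 lower. The 12 excitatory neuron markers summed to 2156 to 2474 and 2213 to 2684, with 1 called higher and 3 lower. Of oligodendrocyte precursor markers 5 of 8 were called higher and 1 lower, yet their sum was lower, at 639 to 773 in CS and 490 to 635 in SD. Oligodendrocyte markers were called higher in 2 of 12 and lower in 5 (sums of 2188 to 3107 in CS and 1997 to 2818 in SD). Of upper layer markers none of 5 was called higher and 2 lower (674 to 767 and 560 to 679). The 8 striatal neuron markers, of which 2 were called higher, summed to 783 to 1676 in CS and 906 to 1761 in SD. Inhibitory neuron markers were called higher in 2 of 14 and lower in 1, and endothelial markers higher in 1 of 9 and lower in 2. Microglia and macrophage markers were called higher in 2 of 10 and lower in 1, and those of pericytes and smooth muscle higher in 3 of 8 and lower in 1. Of layer 5 markers 2 of 5 were called lower, and of layer 6 markers 1 of 4 was called higher and 2 lower. The part of these markers in the receptor changes was not tested.

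The signalling partners of the receptors were called in both directions in WT SD, where 24.6% of all genes were called higher and 20.5% lower. Of 24 genes of group I signalling, 8 were called higher and 6 lower (median log2 fold change 0.06, against 0.04 for all genes). Among those lower were the phospholipases *Plcb4* (-0.70 ± 0.13, SE) and *Plcb1* (-0.69 ± 0.11), which act next after Gq-coupled receptors, the RGS protein *Rgs4* (-0.53 ± 0.14), which shortens such signals, and the kinase *Prkca* (-0.41 ± 0.12). Among those higher were neurochondrin *Ncdn* (0.97 ± 0.32), which binds group I receptors, *Agap2* (0.79 ± 0.24), which binds Homer proteins, the inositol trisphosphate receptor *Itpr3* (0.75 ± 0.20) and the scaffold *Homer3* (0.69 ± 0.18). *Homer1* (-0.30, adjusted p = 0.0971) and *Homer2* (-0.12, adjusted p = 0.370) did not pass.

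Of 23 tested genes of group II and III signalling, 7 were called higher and 6 lower (median 0.09). *Kcnj3*, a channel subunit opened by Gi/o-coupled receptors, fell most (-1.04 ± 0.14, SE), from 525 to 1028 rescaled CPM in CS to 263 to 368 in SD, followed by the adenylyl cyclases *Adcy8* (-0.81 ± 0.13) and *Adcy2* (-0.63 ± 0.10) and the channel subunit *Kcnj6* (-0.46 ± 0.12). *Elfn2* (0.93 ± 0.24) and *Elfn1* (0.46 ± 0.12), postsynaptic proteins that bind group III receptors across the synapse, were called higher, as were *Gng7* (0.70 ± 0.26) and *Adcy5* (0.67 ± 0.25). Of 21 genes of glutamate release, uptake and NAAG handling, 4 were called higher and 2 lower (median 0.05). *Folh1* (-0.44 ± 0.15), which degrades the peptide NAAG, a ligand of *Grm3*, was among the lower, and the glutamine carriers *Slc38a2* (0.38 ± 0.08) and *Slc38a3* (0.32 ± 0.11) were higher with *Got1* (0.31 ± 0.12) and *Glul* (0.31 ± 0.09). The main glutamate transporters *Slc1a3* (-0.38, adjusted p = 0.0775), *Slc1a2* (-0.26, adjusted p = 0.0621) and the vesicular *Slc17a7* (0.47, adjusted p = 0.0605) did not pass.

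After recovery sleep, *Grm8* was the receptor still called lower than in CS, with the other 3 that fell in SD at negative values that did not pass. In WT RS against CS, 1 of 6 receptors was called, against 17.5% of 12752 genes (8.22% called lower). *Grm8* had 194, 294 and 407 rescaled CPM in RS as lowest, median and highest, and its highest RS library lay just under the lowest of CS (408), as did the groups of 2.02% of all genes. Its log2 fold change was -0.64 ± 0.16 (SE, adjusted p = 0.0335). That call was lost without CS replicate 1, 2 or 3 or without RS replicate 3, 4, 5, 6 or 12, at adjusted p of up to 0.0749.

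*Grm3* in RS went from 353 to 777 rescaled CPM with a median of 415, overlapping CS, at a log2 fold change of -0.54 ± 0.19 (SE, adjusted p = 0.0527). *Grm7* was at -0.52 ± 0.18 (adjusted p = 0.0532), *Grm5* at -0.42 ± 0.20 (adjusted p = 0.108), *Grm4* at 0.56 ± 0.19 (adjusted p = 0.0508) and *Grm2* at 0.24 ± 0.18 (adjusted p = 0.281). RS replicate 1, with 2180 rescaled CPM of *Grm5* and 2159 of *Grm7*, was the highest RS library for *Grm3*, *Grm5*, *Grm7* and *Grm8*, and without it *Grm3* (-0.67), *Grm7* (-0.63), *Grm5* (-0.56) and *Grm8* were called. The number called ranged from 0 to 4 with 1 library left out, was 0 without CS replicate 1, 2 or 3 or RS replicate 3, 4, 5, 6 or 12, and was 2 to 4 without CS replicate 4, 5 or 6 or RS replicate 1 or 2. DESeq2 called 4 and edgeR 1. With gene span, GC content and length removed none was called, *Grm8* lying at -0.04 and *Grm3* at -0.24, and none was without the 6 libraries of low listed sum (*Grm8* -0.68, adjusted p = 0.0777) or with no filter on low values (*Grm8* adjusted p = 0.0542). Over all genes the change in RS went with gene span at a rho of -0.556 and with GC content at 0.713, across 12282 genes. CPM as deposited moved the median of all genes from 0.02 to 0.20 and the calls from 1184 higher and 1048 lower to 2350 and 315.

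Beside the *Grm8* call in RS, where 17.5% of all genes were called, blood markers were called higher in 3 of 5 and striatal neuron markers in 3 of 8 (sums of 1062 to 1805 rescaled CPM in RS and 783 to 1676 in CS). Oligodendrocyte precursor markers were called higher in 4 of 8 and lower in 1, though they summed to 532 to 653 in RS and 639 to 773 in CS. Upper layer markers were called lower in 2 of 5. Their part in the receptor values was not tested.

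Between RS and SD no receptor was called by limma, edgeR or DESeq2, where limma called 0.0232% of 12921 genes. *Grm3* was at a log2 fold change of 0.47 ± 0.15 (SE, adjusted p = 0.549), and it was the 1 receptor with an unadjusted p under 0.05 in limma. Values for the other 5 ran from -0.00 (*Grm2*) to 0.29 (*Grm7*). The SD and RS comparisons with CS share the 6 CS libraries, so their values are side by side and are not independent.

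In *Mef2c* f/f mice no receptor was called between SD and CS, with 0.0403% of 12410 genes called by limma and 1 receptor, *Grm4*, at an unadjusted p under 0.05. Libraries of CS and SD overlapped for all 6, and did not for 17.4% of all genes. *Grm3* had 402, 355, 483 and 394 rescaled CPM in CS and 366, 368 and 443 in SD, at a log2 fold change of -0.06 ± 0.12 (SE, adjusted p = 0.824). *Grm7* had 1045, 991, 1307 and 942 in CS and 1004, 911 and 1037 in SD (-0.11 ± 0.12), and *Grm5* had 989, 787, 1037 and 769 in CS and 939.7, 849 and 1001 in SD (0.06 ± 0.13). Neither of these differed beyond the spread of its libraries. *Grm8* (-0.35 ± 0.23), *Grm4* (-0.45 ± 0.17) and *Grm2* (-0.31 ± 0.15) had negative values that did not pass, at adjusted p of 0.455, 0.235 and 0.338. edgeR and DESeq2 called none of the 6 either. Of the Homer partners, *Homer1* had 293 to 362 rescaled CPM in *Mef2c* f/f CS and 484 to 727 in SD, without overlap, while *Homer2* and *Homer3* overlapped. None of the 24 group I signalling genes was called by limma in this comparison.

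The change in SD differed between *Mef2c* f/f and WT mice for 3 receptors in a test of the difference itself, where 15.1% of 13106 genes passed at an adjusted p of at most 0.05 and 9.35% passed with a positive difference. The log2 fold change in *Mef2c* f/f was above that in WT by 0.95 ± 0.21 for *Grm3* (SE, adjusted p = 0.0184), by 0.76 ± 0.21 for *Grm5* (adjusted p = 0.0299) and by 0.70 ± 0.21 for *Grm7* (adjusted p = 0.0368). *Grm8* differed by 0.51 ± 0.27 (adjusted p = 0.159), *Grm2* by -0.55 ± 0.28 (adjusted p = 0.137) and *Grm4* by -0.99 ± 0.36 (adjusted p = 0.0629). The difference went with GC content across 12632 genes (rho -0.756) and with gene span (rho 0.397), and its median over the 214 genes longer than 500 kb was 0.52. With GC content, length and span removed *Grm3* alone was called (0.72, adjusted p = 0.0329), and without the 6 WT libraries of low listed sum it was again *Grm3* alone (0.75, adjusted p = 0.0231). With GC content and length alone removed, *Grm3* (0.91) was called and *Grm7* (0.63) and *Grm5* (0.32) were not. In this same difference all 5 blood genes were called with a negative value (median -2.62), as were 3 of 8 meningeal fibroblast genes (median -1.20), and 4 of 12 oligodendrocyte genes were called with a positive one (median 0.42). Their part was not tested. WT libraries also differed as a set from *Mef2c* f/f libraries in listed CPM sum and in *Pick1*, as given above. Genotype and such differences between the sets of libraries cannot be told apart here.

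No receptor was called without *Mef2c* f/f SD replicate 1 or 3, and 1 was called without *Mef2c* f/f CS replicate 2 or 4, so the number called changes with single *Mef2c* f/f libraries. *Grm7* also lost its call without WT CS replicate 3, WT SD replicate 4, 8 or 9 or *Mef2c* f/f SD replicate 2, each of which left 2 receptors called. CPM as deposited moved the median of all genes from -0.05 to -0.30 and the calls from 1225 positive and 758 negative to 507 and 2919.

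In Mef2c-cKO mice no receptor was called between SD and CS, with 0.0234% of 12810 genes called by limma, no receptor at an unadjusted p under 0.05, and none called by edgeR or DESeq2. CS and SD libraries overlapped for all 6 receptors, where those of 9.05% of genes did not. *Grm3* had 261, 306 and 236 rescaled CPM in CS and 317, 275 and 309 in SD (log2 fold change 0.17 ± 0.11, SE, adjusted p = 0.998). *Grm5* was nearly level, with 828, 817 and 799 in CS and 856, 765 and 847 in SD (0.01 ± 0.09). The remaining receptors lay between -0.02 (*Grm2*) and 0.22 (*Grm8*). The difference between Mef2c-cKO and *Mef2c* f/f mice in the change in SD was not called for any receptor by limma, edgeR or DESeq2, none had an unadjusted p under 0.05, and 0.00778% of 12860 genes were called. These differences ranged from -0.05 ± 0.16 (*Grm5*) to 0.56 ± 0.32 (*Grm8*).

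**Figure D4:**
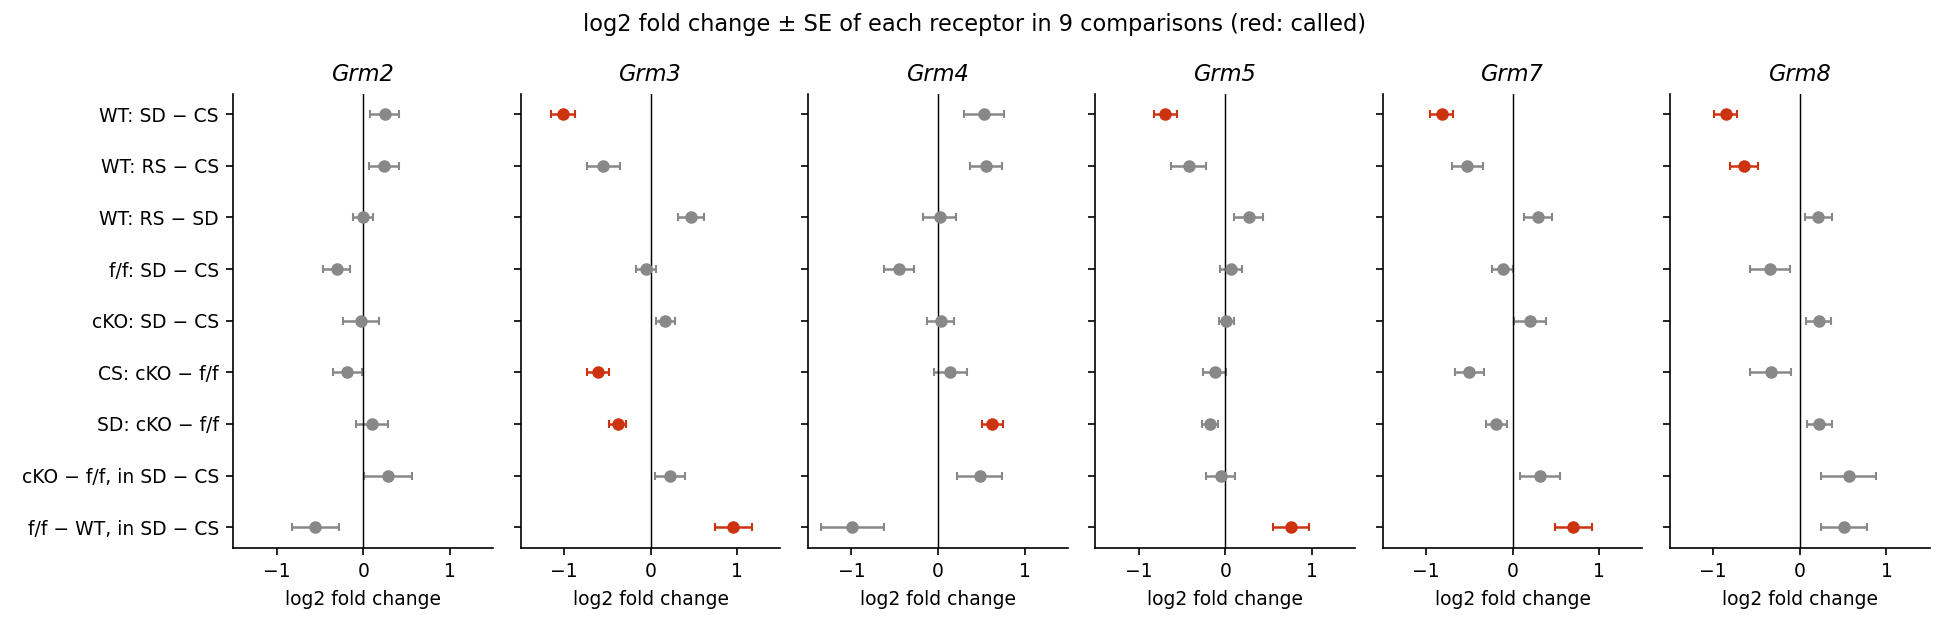
log2 fold change (horizontal axes) ± SE of each receptor in the 9 comparisons (1 line each, the last 2 being differences between genotypes in the change from CS to SD), with called values in red. Red points are *Grm3*, *Grm5*, *Grm7* and *Grm8* in WT SD, *Grm8* in WT RS, *Grm3* in both comparisons of Mef2c-cKO with *Mef2c* f/f, *Grm4* in 1 of them, and *Grm3*, *Grm5* and *Grm7* in the difference between *Mef2c* f/f and WT.

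*Grm3* was lower in Mef2c-cKO than in *Mef2c* f/f mice in CS, the single receptor called there, where 7.67% of 12681 genes were called and 4.5% were called lower. Its 3 Mef2c-cKO values, given above, lay below all 4 of *Mef2c* f/f, a separation in the lower direction that 13.5% of genes show in groups of these sizes. The log2 fold change was -0.61 ± 0.13 (SE, adjusted p = 0.0280), or 34.4% lower. *Grm7*, with 608, 752 and 924 rescaled CPM in Mef2c-cKO, did not overlap *Mef2c* f/f either but did not pass (-0.50 ± 0.17, adjusted p = 0.0935). *Grm8* (-0.34 ± 0.24), *Grm2* (-0.18 ± 0.17), *Grm5* (-0.12 ± 0.13) and *Grm4* (0.14 ± 0.19) did not pass.

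With GC content, length and span removed, *Grm3* was still called (-0.49, adjusted p = 0.0321), as it was by edgeR (-0.63) and DESeq2 (-0.63), while its adjusted p rose to between 0.0466 and 0.0668 with 1 library left out and passed 0.05 without Mef2c-cKO replicate 5, 7 or 8 or *Mef2c* f/f replicate 2. Weighting libraries by quality put it at -0.29, short of the fold asked. Over 12657 genes the difference went with gene span (rho -0.373). Of 711 genes between 200 and 500 kb, the class of *Grm3*, 14.9% were called lower, at a median log2 fold change of -0.21. CPM as deposited moved the median of all genes from 0.03 to 0.13 and the calls from 402 higher and 571 lower to 882 and 346. Upper layer markers were also lower in this comparison, 3 of 5 being called and their sum going from 671 to 714 rescaled CPM in *Mef2c* f/f to 507 to 560.2 in Mef2c-cKO, with 5 of 12 oligodendrocyte markers called higher and 2 of 5 blood markers lower. Astrocyte markers summed to 4789 to 5195 and 4465 to 6425, with 1 of 12 called higher and none lower. The part of these shifts in the lower *Grm3* was not tested. Nor was that of the recombined allele that most of the Mef2c-cKO CS mice carried in all tissues.

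After SD, *Grm3* was again lower in Mef2c-cKO (-0.38 ± 0.10, SE, adjusted p = 0.0300) and *Grm4* was higher (0.63 ± 0.12, adjusted p = 0.0131), 2 of 6 receptors where 15.1% of 12774 genes were called, 9.1% higher and 5.99% lower. *Grm4* had 18.4, 22.6 and 17.3 rescaled CPM in *Mef2c* f/f SD and 28.3, 27.8 and 34.8 in Mef2c-cKO SD, so that neither it nor *Grm3* overlapped between the genotypes, as 40.3% of all genes did not. In CS the same receptor had 21.7, 21.9, 35.5 and 29.5 in *Mef2c* f/f and 35.6, 29.5 and 24.2 in Mef2c-cKO, which overlapped. Both calls held with GC content, length and span removed (*Grm3* -0.45, *Grm4* 0.50). The *Grm3* call was lost without Mef2c-cKO replicate 5 or 7 or without any 1 of the 3 *Mef2c* f/f libraries, and that of *Grm4* without *Mef2c* f/f replicate 1 or 3, while without Mef2c-cKO replicate 6 *Grm2* (0.34) and *Grm7* (-0.33) were called too, 4 in all. A fit over all 7 groups called none of the 6 here, and *Grm3* was not called under quantile normalization (-0.28) or with quality weights (-0.27). CPM as deposited moved the median of all genes from 0.01 to 0.09 and the calls from 1162 higher and 765 lower to 1694 and 492.

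Beside these receptor differences, 4 of 5 upper layer markers were called lower in Mef2c-cKO SD and none higher, from a sum of 674 to 736 rescaled CPM to 448 to 506, 5 of 12 excitatory neuron markers were called lower, and 7 of 10 microglia and macrophage markers were called higher, from 192 to 204 to 252 to 279.7. Inhibitory neuron markers were called higher in 7 of 14 and lower in 3, choroid plexus markers higher in 2 of 3, and striatal neuron markers higher in 1 of 8, at a median log2 fold change of 0.73. The part of these shifts in *Grm3* and *Grm4* was not tested. Among the partners, *Elfn1*, which recruits group III receptors, was higher in Mef2c-cKO SD (0.75 ± 0.09, SE) with *Homer3* (0.68 ± 0.14), and of the 25 group II and III signalling genes 4 were called higher and 3 lower, of the 24 of group I 2 and 1, and of the 21 of glutamate handling 1 and 2, against the 15.1% of all genes called. In CS, where 7.67% of all genes were called, the counts called were 0 higher and 2 lower in group I, 0 and 1 in groups II and III, and 0 and 0 in glutamate handling. *Plcb4* (-0.61) and *Plcb1* (-0.52) were the 2 of group I lower in CS.

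Within the 20 WT libraries, each receptor had genes whose log2 values ran nearly parallel to its own, among 12155 genes with at least 1 CPM throughout. The highest Pearson's r were 0.99 for *Grm7* (*Xkr4* and *Nlgn1*), 0.99 for *Grm5* (*Grik2* and *Csmd3*), 0.99 for *Grm8* (*Htr1f* and *Wrn*) and 0.98 for *Grm3* (*Syt1* and *Scn1a*). For *Grm4* they were 0.95 and 0.94 (*Gdpd5* and *Zfp516*) and for *Grm2* 0.91 and 0.91 (*Cirbp* and *Doc2a*). These values describe likeness across libraries that share sleep groups, depth and base composition.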

How the data were processed

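Per the study's methods, reads of stranded polyadenylated RNA libraries were trimmed, STAR placed them on mm10, HTSeq counted those mapping to 1 place, and the authors deposited CPM from edgeR. The feature counted (exons or whole genes) and the annotation are not given in the sources used here. All 711645 deposited CPM values gave whole reads (within 0.01). Depth is given above. Each library was scaled by the median ratio of its values to the geometric mean over 33 libraries, on 11570 genes. Fold changes are on the log2(rescaled CPM + 0.5) scale.

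Groups and replicate numbers came from the sample titles. Comparisons were fitted over all genes with limma 3.58.1 (R 4.3.3, eBayes with a trend) and p-values adjusted by Benjamini-Hochberg. A gene was tested where 1 or more compared groups had CPM of 1 or more throughout. Differences between genotypes in a change needed only the adjusted p. Alternatives used CPM as deposited, edgeR 4.0.16, DESeq2 1.42.0, quantile normalization, single libraries left out, and splines on GC content, transcript length and gene span (GENCODE M21, GRCm38). The fits were also run on simulated counts with a fixed dispersion. These held no trend on GC content or gene span, so they cannot show how the fits behave under such trends. P-values measure the spread between these samples. Beside the receptors and *Mef2c*, the text names binding partners and main transporters, up to 4 called genes per list and direction in WT SD, and 2 genes most like each receptor. Members, lists and rules were chosen with earlier results of these data known.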

Additional observations from a re-analysis of the deposited data

Results flagged for a closer look

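Among 24 sets of values, of a receptor in a group of 4 or more libraries, 4 had a library far from the others by Dixon's test, where chance flags about 1 in 20 such sets. WT CS replicate 2 was far above the other 5 CS libraries for *Grm5* (2461 rescaled CPM), *Grm7* (2905) and *Grm8* (595), and *Mef2c* f/f CS replicate 3 was above the other 3 for *Grm8* (451). The sets share libraries and are not independent, so their number cannot be set against that share. WT CS replicate 2 had the lowest scaling factor of its group (0.717).

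The change from CS to SD differed between *Mef2c* f/f and WT mice for *Grm3* (0.95), *Grm5* (0.76) and *Grm7* (0.70), as log2 differences in a limma test of the difference itself. Genotype cannot be told apart there from other differences between the WT and *Mef2c* f/f sets of libraries.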

How the results depend on the processing

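No receptor was called in RS against SD, in *Mef2c* f/f, in Mef2c-cKO or in the difference of the last 2 under any alternative run, and in the other comparisons the number called changed. The cause of each change below was not tested. The correction for gene span, the listed CPM sum as covariate and leaving out the 6 libraries were chosen after seeing the data. *Grm2* and *Grm4* had the fewest reads, at as few as 651 and 577 in a library.

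In WT SD against CS the receptors called fell from 4 to 2 with quantile normalization and to 1 with span, GC content and length corrected. It rose to 5 with DESeq2, array quality weights or all 7 groups in 1 fit (*Grm4* added, at 0.54, 0.58 and 0.54) and to 6 with CPM as deposited. In WT RS against CS, with 1 called, there were 2 with CPM as deposited, with TMM factors or with CPM of at least 5, 3 with array quality weights, 4 with DESeq2 or with the listed CPM sum as covariate, 5 in the fit of all 7 groups, and 0 with no filter on low values, with span corrected or without the 6 libraries of low listed sum. Mef2c-cKO against *Mef2c* f/f in CS had 2 called with DESeq2 or array quality weights (1 in the report), and in SD 1 with quantile normalization and 0 with all 7 groups (2 in the report). In SD array quality weights called 3, with *Grm2* (0.35) and *Grm7* (-0.36) added to *Grm4* and *Grm3* lost. For the difference between *Mef2c* f/f and WT (3), 6 were called with array quality weights and 1 each with quantile normalization, GC content and length corrected, span corrected as well, or without the 6 libraries. *Grm7* also lost its call there with no filter on low values. *Grm4*, not called in the report, was called with a negative difference in 4 of 15 alternatives and in 4 of 20 fits with 1 library left out.

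With 1 library left out the number called was 4 to 5 in WT SD against CS (5 without CS replicate 4 or SD replicate 2), 0 to 4 in WT RS against CS, 0 to 1 and 0 to 4 for Mef2c-cKO against *Mef2c* f/f in CS and SD, 0 to 4 for the difference between *Mef2c* f/f and WT, and 0 to 0 in the other 4 comparisons.

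Deviations of same-numbered WT libraries from their group means had correlations of -0.30 to 0.65 (SD and CS), 0.05 to 0.66 (RS and CS) and -0.73 to 0.35 (RS and SD), over 11570 genes. Those of *Mef2c* f/f and Mef2c-cKO had 0.05 to 0.29 and 0.07 to 0.16. Differently numbered libraries were not compared, so whether a shared number marks a shared batch was not tested. With the replicate number as a block, 1 receptor was called in WT SD against CS (*Grm3*, -0.98), 4 in WT RS against CS and 0 for the difference between *Mef2c* f/f and WT, and the genes called went from 5825 to 287, from 2232 to 4279 and from 1983 to 0. The block also turned *Grm2* in RS against SD (0.0085), *Grm5* in *Mef2c* f/f (-0.0049), *Grm2* (0.29) and *Grm4* (-0.046) in Mef2c-cKO and *Grm5* in the difference of Mef2c-cKO and *Mef2c* f/f (0.055). Mef2c-cKO and *Mef2c* f/f share no replicate number in CS or in SD, so their direct comparisons have no blocked value.

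Other log2 values that changed sign were these. With GC content and length corrected, *Grm2* (-0.14) and *Grm4* (-0.058) did so in WT SD, *Grm2* in WT RS against CS (-0.085) and against SD (0.058), and *Grm4* in Mef2c-cKO (-0.016). With span corrected as well, it was *Grm2* (-0.24) and *Grm5* (0.022) in WT SD, *Grm2* (-0.17) and *Grm5* (0.10) in RS against CS, *Grm2* (0.074) and *Grm8* (-0.024) in RS against SD, *Grm3* (0.088) and *Grm7* (0.13) in *Mef2c* f/f, *Grm4* (-0.018) and *Grm5* (-0.051) in Mef2c-cKO, *Grm5* in Mef2c-cKO against *Mef2c* f/f in CS (0.066), *Grm7* in the difference of these genotypes (-0.018) and *Grm8* in that of *Mef2c* f/f and WT (-0.19). Without the 6 libraries, *Grm2* turned in SD (-0.089) and RS (-0.065) against CS, and *Grm2* (0.024) and *Grm4* (-0.054) in RS against SD. With quantile normalization, *Grm2* turned in RS against SD (0.014), *Grm5* in Mef2c-cKO (-0.0046), and in Mef2c-cKO against *Mef2c* f/f *Grm5* in CS (0.12) and *Grm5* (0.033) and *Grm7* (0.020) in SD. In RS against SD, *Grm2* turned with DESeq2 (0.0054) and the listed sum as covariate (0.028), and *Grm4* with CPM as deposited (-0.066), edgeR (-0.029), DESeq2 (-0.013) and array quality weights (-0.24). In Mef2c-cKO, *Grm2* turned with edgeR (0.0066), DESeq2 (0.0076) and array quality weights (0.13), *Grm4* with array quality weights (-0.024) and *Grm5* with CPM as deposited (-0.0046). Array quality weights also turned *Grm3* in *Mef2c* f/f (0.056) and *Grm5* in Mef2c-cKO against *Mef2c* f/f in CS (0.00073).

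Values that changed sign with 1 library left out ranged from -0.062 to 0.066 (*Grm2*) and -0.093 to 0.11 (*Grm4*) in RS against SD, from -0.15 to 0.027 (*Grm3*) and -0.0049 to 0.14 (*Grm5*) in *Mef2c* f/f, from -0.15 to 0.21 (*Grm2*), -0.10 to 0.17 (*Grm4*) and -0.018 to 0.064 (*Grm5*) in Mef2c-cKO, from -0.029 to 0.34 (*Grm2*) in Mef2c-cKO against *Mef2c* f/f in SD, and from -0.13 to 0.017 (*Grm5*) in the difference of these genotypes.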
